A study of Mus musculus with 6 samples.

Results

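Immediate early genes are transcribed within minutes of a stimulus, without the need for new protein synthesis, and their products then carry the response to later genes. Calcium entry, growth factors and tissue handling all reach them through kinases that act on the serum response factor (SRF), its ternary complex partners and CREB. In neurons they are widely used as a record of recent activity, and enzymatic dissociation and cell sorting are known to induce them as well. The 10 genes described here were chosen by symbol: Fos, Fosb, Jun and Junb, which encode subunits of the AP-1 dimer, the zinc finger factor genes Egr1, Egr2 and Egr3, the orphan nuclear receptor gene Nr4a1, Ier2, and Arc, whose product acts at synapses. All 10 had a row among the 36291 genes of the count table.

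The knockout (KO) group consisted of 3 libraries labelled KO, in which Sip1 (the gene Zeb2, a zinc finger homeobox transcription factor) was removed in the Nkx2-1 lineage, and the wild-type (WT) group of 3 libraries labelled WT. Both groups were eGFP-positive cells targeted by Nkx2-1-iCre, a Cre recombinase driven by the gene of a ventral forebrain factor. They were isolated by fluorescence sorting from E14.5 telencephalon of the Swiss strain, so the driver and the sort were shared by KO and WT. Cells outside the domain where the driver acts were not sampled, and the labels give neither the deleted part of Zeb2 nor the number of embryos per library. The titles number the libraries K77, K79 or K80, and every number has a KO and a WT library. The study addressed the part of Sip1 in the migration of cortical interneurons, which arise largely in the medial ganglionic eminence.

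Reads assigned to genes numbered between 8323531 and 11069437 per library. Zeb2 itself had 2856, 2759 and 3391 counts in KO K77, K79 and K80, against 6468, 5350 and 8094 in WT K77, K79 and K80, with a log2 fold change of -1.11 by edgeR (SE 0.138, adjusted p = 0.00116). The 12 microglial markers together summed to 3.90 to 5.41 CPM (read counts scaled to a common library size) in KO and 4.13 to 6.22 CPM in WT, and Ptprc, the pan-leukocyte gene, had 0 counts in KO K79, WT K77 and WT K79. The 18 endothelial and mural markers summed to 36.1 to 64.1 CPM in KO and 32.1 to 59.0 CPM in WT, and the 10 erythroid markers to 10.9 to 25.01 CPM in KO and 18.04 to 31.4 CPM in WT. Neuron and interneuron markers summed to 9835 to 10744 CPM in KO and 9091 to 11073 CPM in WT, and progenitor markers to 2053 to 2468 CPM in KO and 2327 to 2858 CPM in WT. Markers of cortical glutamatergic neurons, which arise outside the sorted lineage, summed to 737 to 924 CPM in KO and 779 to 1075 CPM in WT, with Bcl11b, also a gene of other neurons, at 529 CPM in KO and 541 CPM in WT on average. Oligodendrocyte precursor markers summed to 164 to 168 CPM in KO and 185 to 210 CPM in WT. By genotype edgeR called 6.27% of all genes tested, and 18.4% had an unadjusted p below 0.05. With the K number as a replicate block it called 10.6%. Among the lists of cell markers, edgeR called 0 microglial genes (1 tested), 0 of 15 endothelial and mural genes, 0 of 5 erythroid genes and 0 of 11 glutamatergic genes, with 1 endothelial and 1 glutamatergic gene at an unadjusted p below 0.05 and 0 called by DESeq2 or limma voom. Of 16 progenitor genes 2 rose and 2 fell, of 15 neuron genes 3 rose and 2 fell, and of 8 oligodendrocyte precursor genes 1 rose and 5 fell, such as the growth factor receptor gene Pdgfra (-2.29, adjusted p = 8.69e-05). With the replicate block the endothelial and mural list gained Col1a2, a collagen gene, higher in KO (1.34, adjusted p = 0.0221), and the erythroid list gained Hbb-y, an embryonic globin gene, lower in KO (-1.04, adjusted p = 0.0217), both named after their values were seen. In that fit 3 progenitor genes rose and 5 fell, 3 neuron genes rose and 3 fell, and 1 oligodendrocyte precursor gene rose and 6 fell. Their part in the levels of the immediate early genes was not tested. These are whole populations, so fewer cells of a type and less RNA per cell cannot be told apart.

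Of the 10 genes, 9 passed the filter on low counts and entered the test of KO against WT. Egr1 was the 1 gene called, lower in KO, and 8 were not called, where 6.27% of the 13835 genes tested were called in either direction and 2.62% were called lower. Fos, Fosb and Junb had unadjusted p-values below 0.05 besides Egr1, 4 of 9 genes against 18.4% of all genes tested. The median log2 fold change of the 9 genes was -0.45, against -0.01 over all genes tested, with 6 of them below 0 and 3 above. With the K number as a replicate block, Egr1, Fos and Fosb were called lower, 3 of 9 genes, where 4.45% of all genes were called lower in that fit. DESeq2 called 1 of the genes (6.84% of all genes) and edgeR with no filter on low counts called 3 (5.94%). The authors' deposited table called 3 of them (5.54% of all genes), all lower in KO. None was called higher in the fit by genotype, where 3.64% of all genes were.

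**Figure D1:**
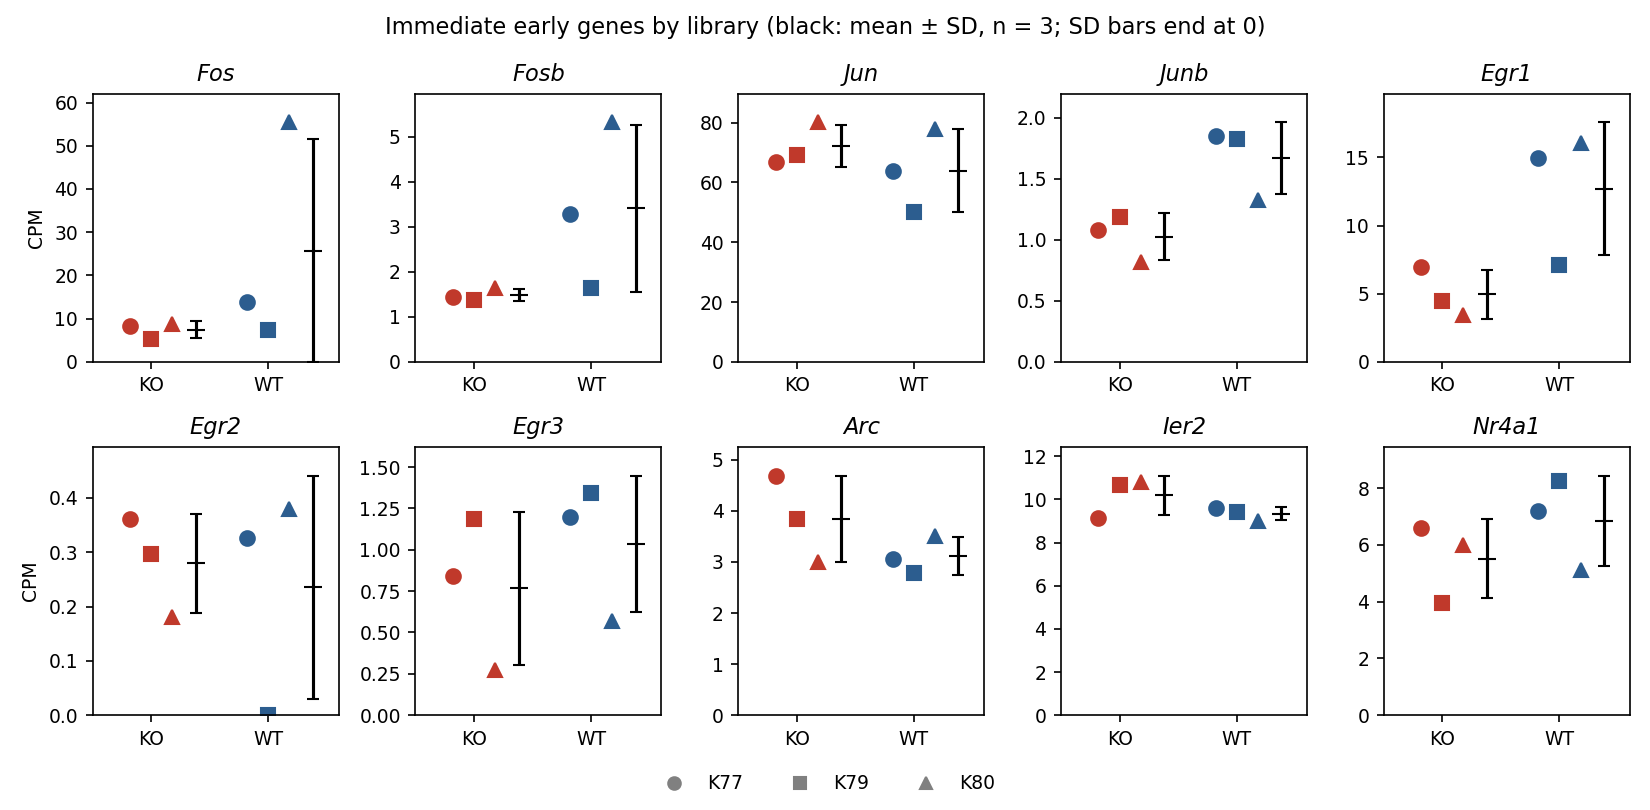
CPM (scaled read counts, linear axis from 0) of the 10 immediate early genes in each KO library (red, left) and each WT library (blue, right), with symbols for K77, K79 and K80 and black bars for the mean ± SD of 3 libraries. WT K80 stood at 55.4 CPM for Fos, above the 5 other libraries, while WT K79 lay between KO libraries. The KO and WT points overlapped for every gene except Junb and Egr1.

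The promoters of Fos, Fosb and Jun are shown because WT K80 stood apart in Fos and Fosb, whereas Jun stood at a like level in both K80 libraries. Each window runs from 250 bases before to 50 bases after the annotated start, 5′ to 3′ on the gene's strand, from RefSeq on GRCm38.p6. Windows from that table were used for 6 of the 10 genes, after all windows of 1 chromosome had been left out by a filter. None was used for Egr1, Egr3, Arc or Ier2, whether for that filter or for want of an entry. The motifs given here therefore do not cover Egr1, the gene called by genotype. Capitals mark every match, on either strand, to the CRE core TGACG, the full CRE TGACGTCA, the AP-1 site TGANTCA, the EGR site GCGNGGGCG, the E2 box CACCTG bound by ZEB factors, or the CArG box bound by SRF. A full CRE would hold the core on both strands, and no matches overlapped in the windows printed.
Fos, chr12:85473640-85473939, plus strand: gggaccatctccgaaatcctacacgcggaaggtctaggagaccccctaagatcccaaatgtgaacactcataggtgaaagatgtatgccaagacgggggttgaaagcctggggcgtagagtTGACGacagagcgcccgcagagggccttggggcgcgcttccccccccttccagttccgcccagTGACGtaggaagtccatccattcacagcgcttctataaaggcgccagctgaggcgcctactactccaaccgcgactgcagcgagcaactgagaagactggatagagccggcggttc
Fosb, chr7:19309996-19310295, minus strand: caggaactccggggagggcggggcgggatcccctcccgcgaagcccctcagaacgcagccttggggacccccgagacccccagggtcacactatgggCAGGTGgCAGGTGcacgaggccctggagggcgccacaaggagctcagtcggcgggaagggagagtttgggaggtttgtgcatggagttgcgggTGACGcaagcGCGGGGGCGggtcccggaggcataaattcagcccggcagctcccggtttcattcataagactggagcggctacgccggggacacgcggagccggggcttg
Jun, chr4:95052173-95052472, minus strand: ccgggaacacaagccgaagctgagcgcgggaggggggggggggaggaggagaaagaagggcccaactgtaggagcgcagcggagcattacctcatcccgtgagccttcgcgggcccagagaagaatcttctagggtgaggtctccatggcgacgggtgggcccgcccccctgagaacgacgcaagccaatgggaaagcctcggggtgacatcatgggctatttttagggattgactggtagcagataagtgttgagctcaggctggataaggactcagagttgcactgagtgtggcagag
The Fos window held 2 CRE cores, and the Fosb window held 1 CRE core, 1 EGR site and 2 E2 boxes. Sites more than 250 bases before the start were not searched, so a motif missing from a window can lie further upstream. No letters of the Jun window matched any of these motifs exactly. Near matches were not counted, and the Jun window holds tgacatca, which differs by 1 base from the full CRE. Among the 32851 promoter windows of the table, 20.8% held a CRE core, 1.79% a full CRE, 7.81% an AP-1 site, 5.55% an EGR site, 20.2% an E2 box and 1.63% a CArG box. Of the other windows, that of Junb held 1 CRE core and that of Nr4a1 held 4 CRE cores and 1 EGR site. Of the 5 Egr2 windows, 1 held no match and 1 held a CArG box alone. The remaining Egr2 windows, which overlap and share their matches, held a CArG box and CRE cores.

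Fos, whose product pairs with JUN proteins in AP-1, showed the widest spread of the 9 genes tested. Fos had 69, 53 and 97 counts in KO K77, K79 and K80 (8.297, 5.23 and 8.79 CPM), against 128, 76 and 584 counts in the WT libraries K77, K79 and K80 (14.0, 7.29 and 55.4 CPM). WT K80 was 3.97-fold above the next highest library, and WT K79 lay between the KO libraries, so the groups overlapped. The level averaged 7.44 ± 1.93 CPM in KO and 25.6 ± 26.1 CPM in WT (SD, n = 3 each), so that the SD of WT exceeded its mean. The log2 fold change was -1.79 (SE 0.631, 95% interval -3.20 to -0.38) and was not called (edgeR adjusted p = 0.149). It was called with the replicate block (-1.56, adjusted p = 0.0215) and with no filter on low counts (-1.80, adjusted p = 0.00428). Without WT K80 it was -0.51 (adjusted p = 0.446), and without WT K79 it was -2.23 (adjusted p = 0.0221). The authors' deposited table gave Fos a log2 fold change of -1.78 with an adjusted p of 4.67e-23.

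Fosb, the gene of a second FOS subunit, ordered the WT libraries as Fos did. Fosb had 12, 14 and 18 counts in KO K77, K79 and K80 (1.44, 1.38 and 1.63 CPM), against 30, 17 and 56 counts in the WT libraries K77, K79 and K80 (3.27, 1.63 and 5.32 CPM). The 3 KO libraries lay close together, and WT K79 stood at the level of KO K80 while WT K77 and WT K80 stood above all KO libraries. The log2 fold change was -1.19 (SE 0.407, 95% interval -2.10 to -0.28; edgeR adjusted p = 0.136), called with the replicate block (-1.15, adjusted p = 0.0461) and with no filter on low counts (-1.20, adjusted p = 0.0368). Without WT K80 it was -0.70 (adjusted p = 0.376), and without WT K79 it was -1.53 (adjusted p = 0.0158). In the authors' deposited table Fosb was called at -1.20 (adjusted p = 0.0151).

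Jun, which encodes the AP-1 subunit that can pair with itself or with FOS proteins, followed the K number rather than the genotype in its highest values. Jun had 556, 702 and 884 counts in KO K77, K79 and K80 (66.9, 69.3 and 80.1 CPM), against 587, 521 and 819 counts in the WT libraries K77, K79 and K80 (64.0, 50.003 and 77.7 CPM). Both K80 libraries were high, WT K79 was lowest, and the groups overlapped. The log2 fold change was 0.18 (SE 0.142, 95% interval -0.14 to 0.49; edgeR adjusted p = 0.59), an interval that runs from 0.907-fold to 1.41-fold of the WT level. It was called under none of the 14 alternatives tried, with values of 0.02 to 0.34 when 1 library was left out. An annotated antisense transcript, Junos, overlaps Jun, and whether the counting used strand is not stated in the sources used here.

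Junb, an AP-1 subunit with a weaker activating domain than JUN, had few reads but did not overlap between the genotypes. It had 9, 12 and 9 counts in KO K77, K79 and K80 (1.08, 1.18 and 0.816 CPM), against 17, 19 and 14 counts in the WT libraries K77, K79 and K80 (1.85, 1.82 and 1.33 CPM). Every WT library stood above every KO library, which 23.2% of all genes tested also showed in one direction or the other, and 11.4% with KO lower. The log2 fold change was -0.70 (SE 0.307, 95% interval -1.38 to -0.01) and was not called (edgeR adjusted p = 0.262). In the annotation Junb overlaps Prdx2 on the opposite strand, a gene with 6288 counts over the 6 libraries, so reads in the overlap cannot be told apart without strand.

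Egr1, a zinc finger factor that is among the fastest genes to respond to growth factors and neuronal firing, did not overlap between the genotypes and fell in KO. Egr1 had 58, 45 and 38 counts in KO K77, K79 and K80 (6.97, 4.44 and 3.44 CPM), against 137, 74 and 169 counts in the WT libraries K77, K79 and K80 (14.9, 7.10 and 16.0 CPM). The gap between the genotypes was narrow at its edge, with KO K77 at 6.97 CPM beside WT K79 at 7.10 CPM. Of all genes tested 23.2% also had no overlap, and 11.4% had none with KO lower. The level averaged 4.95 ± 1.82 CPM in KO and 12.7 ± 4.87 CPM in WT (SD, n = 3 each). In log2 terms KO over WT was -1.38 (SE 0.332, 95% interval -2.12 to -0.64; edgeR adjusted p = 0.0373). With the replicate block it was -1.35 (adjusted p = 0.00876). The call was lost without KO K79 (adjusted p = 0.156), KO K80 (0.172), WT K77 (0.126) or WT K80 (0.11), and with limma voom (0.0653). The authors' deposited table gave -1.36 (adjusted p = 6.26e-09).

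The other EGR genes were near the limit of detection. Egr3 had 7, 12 and 3 counts in KO K77, K79 and K80, against 11, 14 and 6 counts in the WT libraries K77, K79 and K80, and both K80 libraries were lowest within their genotype. Its log2 fold change was -0.45 (SE 0.521, 95% interval -1.61 to 0.71, edgeR adjusted p = 0.722). A change of either sign of about that size was not detectable at this depth and spread between libraries. Egr2, which in the hindbrain patterns rhombomeres and in Schwann cells drives myelination, had 3, 3 and 2 counts in KO K77, K79 and K80, against 3, 0 and 4 in WT K77, K79 and K80. The sums were 8 counts in KO (exact 95% Poisson interval 3.45 to 15.8) and 7 counts in WT (2.81 to 14.4), intervals that cover counting error only. Egr2 did not pass the filter and was not tested.

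Nr4a1, Arc and Ier2 gave no call in edgeR under any alternative tried. Nr4a1, a nuclear receptor that acts without a known ligand, had 55, 40 and 66 counts in KO K77, K79 and K80 (6.61, 3.95 and 5.98 CPM), against 66, 86 and 54 counts in the WT libraries K77, K79 and K80 (7.20, 8.25 and 5.13 CPM). WT K79, the lowest WT library for Fos, Fosb and Egr1, was the highest of all 6 for Nr4a1, and WT K80 was the lowest WT library. Its log2 fold change was -0.32 (SE 0.243, 95% interval -0.86 to 0.22; edgeR adjusted p = 0.561).

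Arc, whose messenger RNA moves into dendrites of mature neurons, had 39, 39 and 33 counts in KO K77, K79 and K80 (4.69, 3.85 and 2.99 CPM), against 28, 29 and 37 counts in the WT libraries K77, K79 and K80 (3.05, 2.78 and 3.51 CPM). The groups overlapped, since KO K80 lay below WT K77 and WT K80. Its log2 fold change was 0.29 (SE 0.233, 95% interval -0.23 to 0.81; edgeR adjusted p = 0.595). Ier2, a rapidly induced nuclear protein gene, had 76, 108 and 119 counts in KO K77, K79 and K80 (9.14, 10.7 and 10.8 CPM), against 88, 98 and 95 counts in the WT libraries K77, K79 and K80 (9.60, 9.41 and 9.02 CPM). Its spread as estimated by edgeR was the smallest of the 9 genes tested. The log2 fold change was 0.13 (SE 0.137, 95% interval -0.17 to 0.44; edgeR adjusted p = 0.686), an interval of 0.887-fold to 1.35-fold of the WT level.

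**Figure D2:**
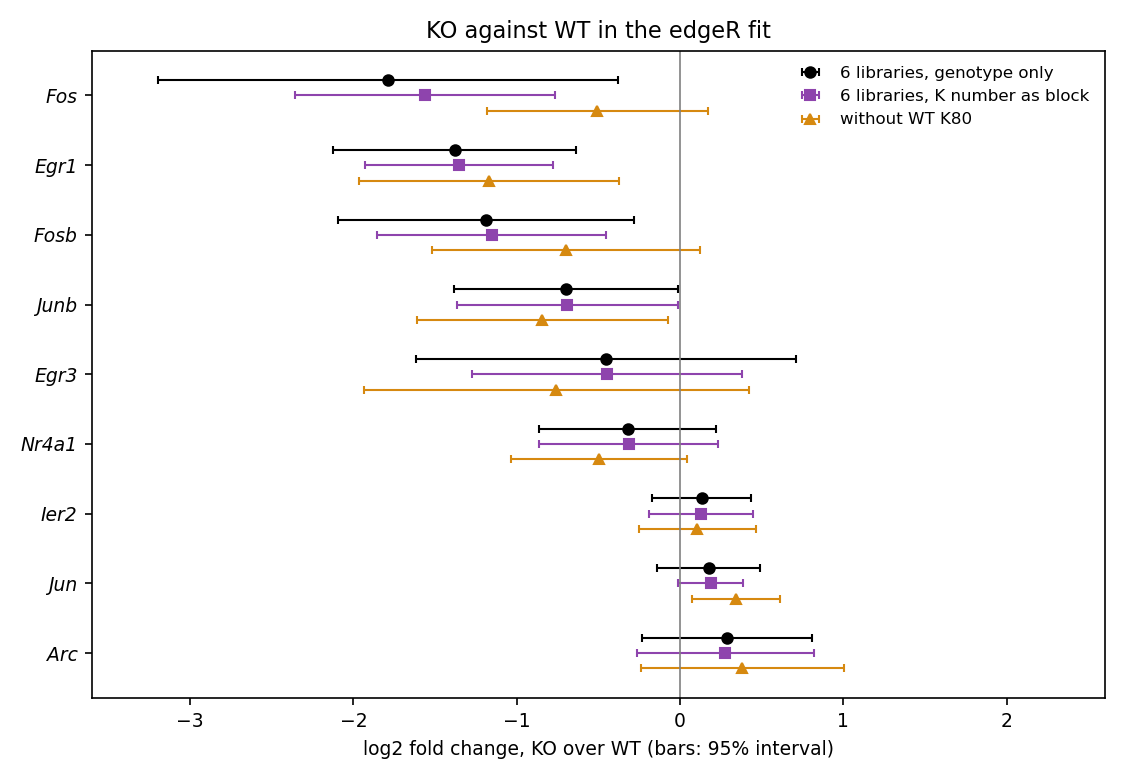
Log2 fold change of KO over WT (horizontal axis, 0 marked) with its 95% interval for the 9 tested genes in the edgeR fit by genotype (black), with the K number as block (purple) and without WT K80 (orange). For Fos the value moved to -0.51 without WT K80, while Egr1 stayed between -1.38 and -1.17 over the 3 fits.

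Within each K number, KO was below WT for Fos, Fosb, Junb, Egr1 and Egr3 at all 3 numbers, 5 genes where 22.1% of all genes tested lay below WT at all 3. For Fos the log2 ratio of KO over WT was -0.75 in K77, -0.48 in K79 and -2.66 in K80. For Fosb it was -1.18 in K77, -0.24 in K79 and -1.70 in K80. For Egr1 it was -1.10 in K77, -0.68 in K79 and -2.22 in K80. In all 3 genes the K80 pair differed most and the K79 pair least. Junb had nearly the same ratio at each number, at -0.78, -0.62 and -0.70 in K77, K79 and K80. Jun lay above WT at all 3 numbers (0.06, 0.47 and 0.04), which 22.3% of all genes also did. Arc, Ier2 and Nr4a1 changed sign between numbers.

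**Figure D3:**
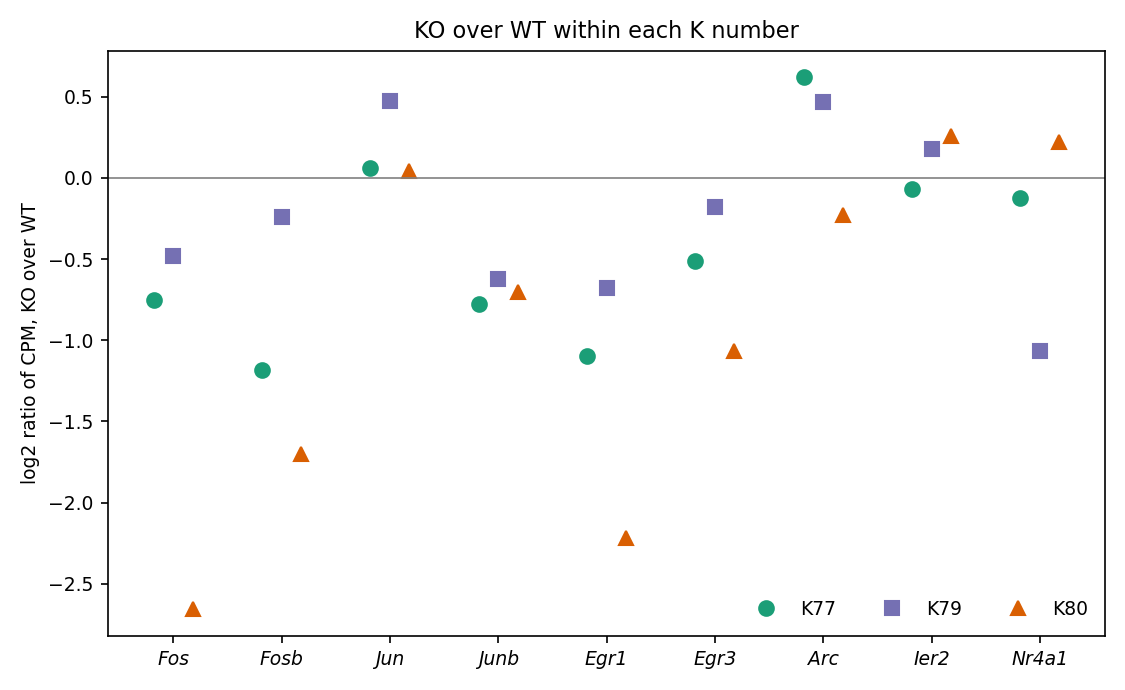
Log2 ratio of CPM, KO over WT, within K77 (circle), K79 (square) and K80 (triangle) for the 9 tested genes, with 0 marked. The K80 ratio reached -2.66 for Fos, -2.22 for Egr1 and -1.70 for Fosb, whereas the 3 ratios of Junb lay between -0.78 and -0.62.

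Spread between libraries of one genotype differed widely among the 10 genes. The biological coefficient of variation estimated by edgeR, which leaves out counting noise, was 48.2% for Fos, above 99.8% of the genes tested, 28.8% for Fosb, 26.2% for Egr1 and 25.3% for Egr3, against a median of 9.01% over all genes tested. It was 17.9% for Nr4a1, 13.6% for Arc, 12.6% for Junb and 12.4% for Jun, and Ier2 at 9.15% lay near that median. These estimates are drawn toward those of genes of like level, most strongly where reads are few. The median is over genes of all levels. The spread of Fos and Fosb lay on the WT side. Within WT the highest library was 7.60-fold above the lowest for Fos and 3.26-fold for Fosb, while within KO the highest was 1.68-fold and 1.18-fold above the lowest. Set against sampling noise, where the chi-square statistic of the counts divided by its degrees of freedom is near 1, Fos reached 5.10 in KO and 269.6 in WT. Ier2 stood at 0.736 in KO and 0.0927 in WT, within sampling noise. Junb, with few reads, stood at 0.376 in KO and 0.535 in WT, also within sampling noise, whereas Jun stood at 6.97 in KO and 31.5 in WT.

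**Figure D4:**
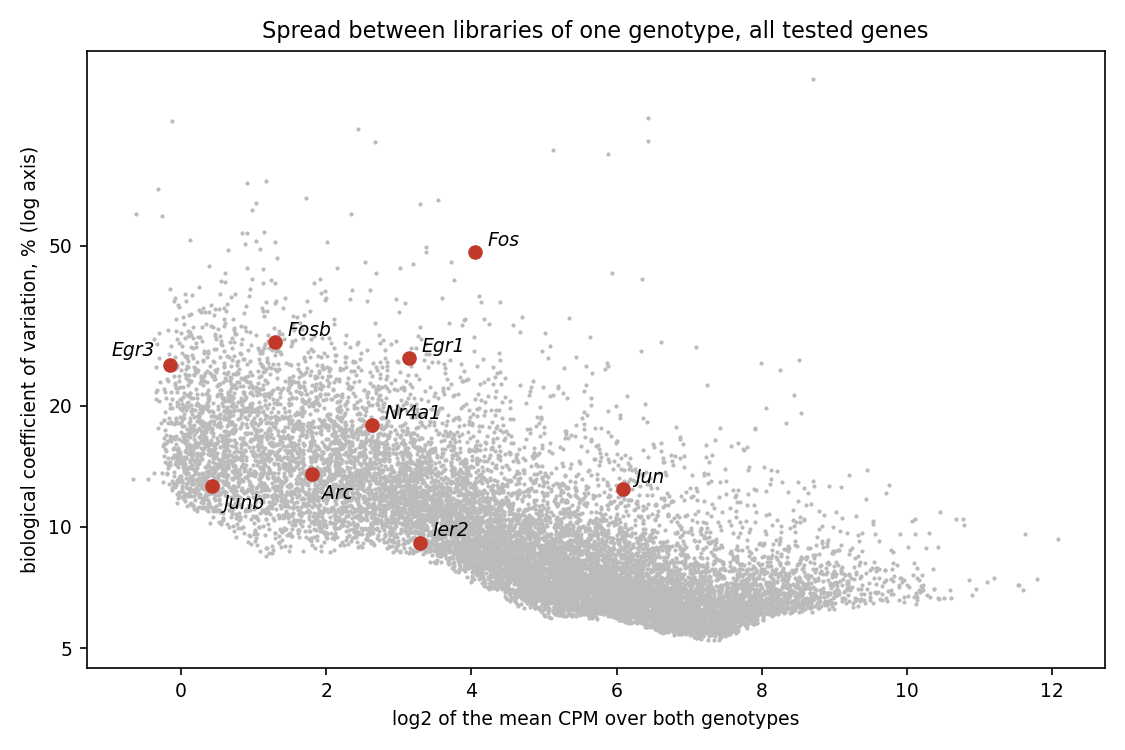
Biological coefficient of variation in percent (log axis) against the log2 of mean CPM for all 13835 genes tested (grey) and the 9 tested immediate early genes (red). Fos stood at 48.2%, above 99.8% of the genes tested, and Ier2 at 9.15%, near the median of 9.01%.

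WT K80 set the level of Fos apart from the rest. By the ratio of WT K80 to the highest of the 5 other libraries, Fos (3.97) ranked 1 among all 13835 genes tested and Fosb (1.63) ranked 23. Only 0.34% of the genes tested, 47 in all, reached 1.5-fold by this ratio, and no gene of the 12 other lists described here was among them. Egr1 in WT K80 was 1.07-fold above the next library, and Jun, Junb, Egr3, Arc, Ier2 and Nr4a1 were not highest in WT K80. The 47 genes, which were picked for a high WT library, included the neurexophilin gene Nxph2 (1.90), the neuronal gene Camk2n1 (1.77) and the serotonin receptor gene Htr3a (1.64), chosen after their values were seen. By genotype edgeR called 16 of the 47 lower in KO and did not call 31, and picking a high WT library favours that direction. Nxph2 and Htr3a were among the 16, with every WT library above every KO library, and Camk2n1 was not. Whether handling, cell makeup or genotype bears on the level of Fos in WT K80 was not tested.

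None of the relatives of these genes that were tested was called by genotype. Of 15 relatives 10 were tested and edgeR called 0, where 6.27% of all genes tested were called. An unadjusted p below 0.05 was reached by 1 of the 10, against 18.4% of all genes tested. DESeq2 and limma voom called 0, and the median log2 fold change was -0.01. Atf2, which pairs with JUN, stood at 205, 201 and 207 CPM in KO K77, K79 and K80, against 186, 172 and 210 CPM in WT K77, K79 and K80. Ier5 differed by -0.24 (SE 0.116, edgeR adjusted p = 0.31). Nr4a2, the receptor gene next in family to Nr4a1 and known for its part in dopamine neurons, lay above WT by 0.47 (SE 0.123, edgeR adjusted p = 0.0534), and was called with the replicate block (adjusted p = 0.0124). Atf3, a stress-induced ATF gene, had 0, 0 and 1 counts in KO K77, K79 and K80 and 4, 4 and 3 in WT K77, K79 and K80, too few to be tested. Egr4 had at most 1 count in any library. Nr4a2, Atf3 and Egr4 were named after their values were seen.

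Of 32 further rapid response genes 27 were tested, 1 fell, 0 rose and 26 were not called, and the median log2 fold change was 0.01. Over all genes tested 2.62% were called lower and 3.64% higher. Nfil3, a basic leucine zipper repressor gene, fell by 0.37 on the log2 scale (SE 0.0947, edgeR adjusted p = 0.0494). It had counts of 511, 499 and 608 in KO K77, K79 and K80, against 695, 681 and 766 in WT K77, K79 and K80. No library overlapped between the genotypes for Nfil3, which 11.4% of all genes tested also showed with KO lower. Its edgeR call was lost without KO K79 (adjusted p = 0.191), KO K80 (0.172), WT K77 (0.161) or WT K80 (0.112). With the replicate block 3 of these genes fell and 1 rose. Those gained were Nptx2 (-0.78, adjusted p = 0.00556), Plk2 (-0.26, adjusted p = 0.0388) and Btg2 (0.40, adjusted p = 0.0395). Npas4, which is induced by neuronal activity and hardly by other stimuli, had 55, 77 and 77 counts in KO K77, K79 and K80, against 60, 76 and 64 in WT K77, K79 and K80. Npas4 differed by 0.09 on the log2 scale (edgeR adjusted p = 0.827). Npas4, Nptx2, Plk2 and Btg2 were chosen after their values were seen.

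Heat shock genes, which also move when tissue is dissociated, showed no call. Of 14 in the list 11 were tested, and edgeR called 0, with 0 at an unadjusted p below 0.05 and 0 by DESeq2 or limma voom. Over all genes tested edgeR called 6.27%, and 18.4% had an unadjusted p below 0.05. The list summed to 2185 to 2438 CPM in KO and 2081 to 2376 CPM in WT. The most abundant were Hsp90ab1 (0.12, edgeR adjusted p = 0.38) and Hspa5 (0.10, adjusted p = 0.742), in log2 fold change. The inducible genes Hspa1a and Hspa1b had at most 3 counts in any library, too few to be tested.

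Genes that restrain the response moved in both directions. Of 17 in the list 16 were tested, 3 rose, 1 fell and 12 were not called, where 6.27% of all genes tested were called. The Sprouty genes, inhibitors of receptor tyrosine kinase signalling, split: Spry1 rose by 1.29 (SE 0.141, edgeR adjusted p = 0.000591) and Spry2 by 0.54 (SE 0.0854, adjusted p = 0.00441), and Spry4 fell by 1.63 (SE 0.229, adjusted p = 0.00226). Spry4 had 15, 26 and 17 counts in KO K77, K79 and K80, against 60, 63 and 61 in WT K77, K79 and K80. The genotypes did not overlap for Spry4, as for 11.4% of all genes tested with KO lower. Dusp4, which encodes a nuclear phosphatase of the ERK and JNK kinases, rose by 0.52 (SE 0.0801, adjusted p = 0.004). Nab2, a corepressor of EGR proteins that EGR1 is known to induce, had 26, 26 and 23 counts in KO K77, K79 and K80, against 45, 51 and 39 in WT K77, K79 and K80. Nab2 was not called (-0.81, SE 0.233, edgeR adjusted p = 0.0772) and was called with the replicate block (adjusted p = 0.0427). With the block Dusp6, an ERK phosphatase gene, was called higher (0.56, adjusted p = 0.0313), so that 4 of the list rose and 2 fell. Nab2 and Dusp6 were chosen after their values were seen.

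Most upstream activators were not called. Of 32 in the list 31 were tested, 1 rose, 2 fell and 28 were not called, with a median log2 fold change of 0.01. The share called over all genes tested was 6.27%. Mef2c, a transcription factor gene of activity-dependent transcription that is also a marker of cortical interneurons, fell by 1.56 (SE 0.138, edgeR adjusted p = 0.000178). Rps6ka5, which encodes the kinase MSK1 that phosphorylates CREB and histone H3 at these promoters, fell to 408, 454 and 518 counts in KO K77, K79 and K80, against 927, 766 and 1274 in WT K77, K79 and K80 (-1.07, SE 0.152, edgeR adjusted p = 0.00248). Map2k1, which encodes the ERK kinase MEK1, rose by 0.54 (SE 0.0908, adjusted p = 0.00576). Srf itself differed by -0.03 (edgeR adjusted p = 0.877) and Creb1 by 0.04 (adjusted p = 0.797), both chosen after their values were seen. With the replicate block 1 rose and 4 fell, with the kinase genes Mapk10 (-0.28, adjusted p = 0.0495) and Rps6ka3 (-0.21, adjusted p = 0.0426) gained and named after their values were seen.

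Among 10894 genes outside all lists with a mean of at least 5 CPM, those whose log2 CPM over the 6 libraries lay closest to the mean of the 9 tested immediate early genes were Limd2 (Pearson r = 0.996), Rab23 (0.988), Zxdc (0.988), Nup43 (0.987) and Ptpmt1 (0.986). These 6 points share their libraries and scaling with the genes compared, and r is given as a description. The 9 genes did not move together, so their mean stands for no shared pattern. Between them r ran from 0.954 for Fos and Fosb to -0.805 for Jun and Egr3. The 5 genes were picked as the highest of 10894, and r does not reflect the size of a change. Limd2 averaged 78.7 ± 1.195 CPM in KO and 85.5 ± 3.93 CPM in WT (SD, n = 3 each). None of the 5 was called by edgeR (adjusted p 0.152 to 0.483).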

How the data were processed

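Messenger RNA was sequenced in 3 KO and 3 WT libraries (100 ng of total RNA, 15 PCR cycles and 36 read cycles, per the labels' protocols). The authors deposited whole read counts per gene, not normalized, as a table of the series and per library, and both agreed in all rows. Software in the submitters' processing notes, given without roles or order, was DESeq 1.2.2, HTSeq 0.5.3p3 and TopHat 1.2.0, with the mm9 build. Neither the annotation nor the strand setting is stated in the sources used here. The authors' deposited table of the comparison holds a linear fold change (ratio), a log2 fold change and raw and adjusted p-values, per the file headers. Since it calls its groups A and B, the direction KO over WT was taken from the 777 calls shared with edgeR, of which 777 had the same sign. Rows naming no gene were left out (unassigned 19.7 to 21.8% of counts, ambiguous 1.94 to 1.99%).

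Counts were tested in R 4.3.3 with edgeR 4.0.16 (filterByExpr at min.count 10, TMM scaling, quasi-likelihood test, Benjamini-Hochberg adjustment over 13835 genes, calls at adjusted p below 0.05), on the genotype alone. The SE is the log2 fold change over the square root of the F statistic. The tests were checked on simulated counts with gene-wise spread and effects shared within a K number. The simulated spread was centred near the median of all genes, with no single outlying library. The check therefore does not cover a spread as wide as that of Fos. Alternatives were RLE size factors, DESeq2 1.42.0, limma 3.58.1 (voom), no filter, 1 CPM in 3 libraries, a replicate block (K number), other thresholds and each library left out. Leaving out both K80 libraries and a robust dispersion were chosen once the data had been seen.

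The KO and WT library of each K number departed from their genotype's mean in the same direction across genes (r = 0.256 in K77, 0.197 in K79, 0.175 in K80; limit 0.1), so the number was read as a pairing. The main test leaves it out. Values with it as a block are given where they change the call of a named gene, and other list genes enter only as counts. Nothing in the labels ties a library to its own embryo or litter. The p-values therefore cover only the spread between these libraries, which may be technical. Replicates differed beyond sampling noise (chi-square per degree of freedom 3.64 to 4.47 between KO and 5.69 to 10.1 between WT libraries). With 3 libraries against 3 an exact permutation test cannot go below p = 0.1 (two-sided), so none was run.

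The genes and lists were chosen with earlier results of these data known. Named were Zeb2, the 10 immediate early genes, up to 6 called genes per other list by lowest p (or the 2 most abundant where none was called), and the 5 closest genes by correlation of log2(CPM + 0.5). Marker lists are given by their sums and counts, with few genes named. Promoters came from RefSeq on GRCm38.p6, a later build than mm9, and gene overlaps from GENCODE M21.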

Additional observations from a re-analysis of the deposited data

How the results depend on the processing

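The number of immediate early genes called was 1 in the edgeR fit by genotype and ranged from 0 to 3 when 1 library was left out. It was 3 with the replicate block and with no filter on low counts, and 0 with limma voom, with the robust dispersion, without both K80 libraries, or at an adjusted p under 0.01. Without WT K79 it was 3, without KO K77 it was 1, and it was 0 without KO K79, KO K80, WT K77 or WT K80. Over all genes 867 were called, 1463 with the replicate block, 427 at the stricter threshold, 305 without both K80 libraries, and 445 to 1044 when 1 library was left out. The other lists together held 23 calls, 39 with the replicate block and 15 without both K80 libraries, and 21 to 29 when 1 library was left out. The block changed the calls of Fos and Fosb among the immediate early genes and no other.

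All 9 tested genes kept their direction under all 14 alternatives. Of the 126 values, 7 lost a call (all Egr1) and 6 gained one (3 for Fos and 3 for Fosb). Egr1 ranged from -1.69 to -1.16 when 1 library was left out and was -0.95 without both K80 libraries (adjusted p = 0.346). Fos was -0.65 and Fosb -0.77 without both K80 libraries. Among genes of the other lists, when 1 library was left out, Hspa5 ranged from -0.0046 (without KO K79) to 0.264, Kdr from -0.558 to 0.0635 (without WT K79), and Bcl11b from -0.115 to 0.0356 (without KO K79) with 0.0168 without WT K77, none of them called. Which property of the libraries moves these calls was not tested. Egr2, Egr3, Junb, Arc and Fosb had under 60 counts in each library, which limits what could be detected.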
